A study of Mus musculus with 62 samples.

Results

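The chloride cotransporter genes Slc12a2 and Slc12a5 and 4 genes of the kinases that act on them, Wnk1, Wnk3, Stk39 and Oxsr1, were chosen by name from the count tables of a study of Ts65Dn mice. These 6 genes were all found among the 27179 genes of each table, and all 6 passed the filter on low counts in every comparison. Ts65Dn mice carry an extra small chromosome with a segment of mouse chromosome 16 and part of chromosome 17, and model Down syndrome. RNA was measured in 62 libraries. Forebrain of embryos at embryonic day E17.5 gave 8 euploid and 7 Ts65Dn libraries, with no sex in the labels. Hippocampus of 6-week-old mice gave 8 euploid, 7 Ts65Dn and 8 Ts65Dn;Brwd1+/- libraries from males and 8 of each genotype from females. All animals were on the DBA/2J x B6EiC3Sn/J background. Ts65Dn;Brwd1+/- animals carry the trisomy together with 1 mutant allele (repro5) of Brwd1, one of the triplicated genes, which leaves 2 intact copies. Each library carries a name of its own in the labels, and the study's methods state that animals were not pooled for molecular analyses, so each library was taken as 1 animal.

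Slc12a2 encodes NKCC1, which carries sodium, potassium and chloride into the cell. Slc12a5 encodes KCC2, which is made almost only by neurons and carries potassium and chloride out. The balance between import and export sets the chloride content of a neuron and so whether GABA-A receptors, which are chloride channels, depolarize or hyperpolarize it, and during brain maturation KCC2 is known to increase. WNK1 and WNK3 are kinases that sense chloride and osmolarity and activate SPAK (Stk39) and OSR1 (Oxsr1), which phosphorylate both transporters, activating NKCC1 and inhibiting KCC2. Phosphorylation is not seen in RNA counts. NKCC1 and SPAK are also abundant in the choroid plexus, the epithelium that secretes cerebrospinal fluid and lies against the hippocampus.

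Slc12a5, whose RNA differed most between the stages, is listed in RefSeq (GRCm38.p6) with 2 starts 7142 bases apart on the plus strand, and gene counts add up reads from both. Of the 250 bases before each start, those up to the first annotated exon base are shown, because they differ in composition. The bases between each window and its start were not searched. For the upstream start these are 206 bases at chr2:164960596-164960801 with 57.3% GC and 6 CG pairs, and capitals mark a CCAAT box read on the minus strand. For the downstream start these are 245 bases at chr2:164967738-164967982 with 66.5% GC and 16 CG pairs, and capitals mark a GC box on the minus strand and an E-box.
Slc12a5 upstream start: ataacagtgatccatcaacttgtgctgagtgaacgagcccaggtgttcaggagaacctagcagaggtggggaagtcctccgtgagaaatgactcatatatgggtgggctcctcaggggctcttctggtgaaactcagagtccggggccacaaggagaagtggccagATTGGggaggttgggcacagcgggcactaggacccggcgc
Slc12a5 downstream start: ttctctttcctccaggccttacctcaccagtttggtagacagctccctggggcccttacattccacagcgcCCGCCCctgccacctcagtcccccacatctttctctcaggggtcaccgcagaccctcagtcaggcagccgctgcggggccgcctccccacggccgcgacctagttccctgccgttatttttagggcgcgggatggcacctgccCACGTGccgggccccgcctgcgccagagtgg
Both strands were searched for the letters CCAAT, for the GC box, GGGCGG, which Sp1 factors bind, for the E-box, CACGTG, for the box near many starts, TATAAA, for the motif of EGR factors, GCGNGGGCG, and for the core of the site of the repressor REST, TTCAGCACC. Over the first 206 of the 250 bases before a start, CCAAT was found in 29.3% of all 32851 RefSeq promoters. Over the first 245 of them, the GC box was found in 32.1% and the E-box in 5.85%. The EGR motif (3.25% of promoters over 206 bases and 4.54% over 245), TATAAA (9.38% and 12.2%) and TTCAGCACC (0.265% and 0.301%) were not in either window. The upstream window ends at 164960801 and its start is at 164960846, so a TATAAA in the bases between would have been missed. Over all 250 bases, the median promoter had 52.4% GC. RefSeq promoters matched 5 of the 6 members, all but Slc12a2.

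In mm10, Slc12a2 lies on chromosome 18 (57878512 to 57946821), Slc12a5 on chromosome 2 (164960846 to 164999731), Stk39 also on chromosome 2 (68210445 to 68472108), Wnk1 on chromosome 6 (119923969 to 120038695), Oxsr1 on chromosome 9 (119238432 to 119322684) and Wnk3 on chromosome X (151168777 to 151320194). None lies in the triplicated segments. Wnk3 shares 523 of its 10589 exon bases (4.94%) with the antisense gene A230072E10Rik, and as the library kit does not keep strand, reads from that stretch cannot be assigned to one or the other gene. Counts per library ran from 947 to 15195 for Slc12a2, from 1696 to 98765 for Slc12a5, and were at least 921 for every member.

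Library totals ranged from 14.9 to 62.6 M counts (1 M is 1000000) at E17.5 and from 33.6 to 137.1 M counts in the adult. The labels were checked with Brwd1, the gene whose copy number was restored. At E17.5 its log2 CPM (counts per 1000000, on a log2 scale) was 7.12 to 7.33 in euploid and 7.74 to 8.01 in Ts65Dn libraries. In the adult, the group medians were 6.82 for euploid, 7.32 for Ts65Dn and 7.20 for Ts65Dn;Brwd1+/- males, and 7.04, 7.43 and 7.28 in females. These medians include libraries that lacked extra dosage, as given below. They are B145 (7.01) in male Ts65Dn, B138 (6.58) and T35 (6.87) in male Ts65Dn;Brwd1+/- and B136 (6.66) in female Ts65Dn;Brwd1+/- mice. Ts65Dn;Brwd1+/- and Ts65Dn libraries overlapped, with B69 (7.33) above B25 (7.30) in males and B175 (7.36) above T141 (7.23) in females. Brwd1 thus did not separate these labels library by library. Against the euploid libraries, the triplicated genes had a median log2 ratio of 0.51 to 0.65 in 34 trisomic libraries but 0.00723 to 0.0446 in the other 4, labelled male Ts65Dn B145, male Ts65Dn;Brwd1+/- B138 and T35 and female Ts65Dn;Brwd1+/- B136. The libraries labelled male Ts65Dn B88 and female euploid B85 carried the sex-linked transcripts of the opposite sex. These 6 libraries were kept in all results, and only where stated is a result also given without them. Forebrain markers (Emx1, Tbr1 and Lhx2) had a mean log2 CPM of 4.11 to 6.47 at E17.5 and of 5.17 to 5.84 in the adult. This list thus did not set the 2 tissues apart. Hippocampal markers (Prox1, Zbtb20, Wfs1, Grik4 and Fibcd1) were at 5.36 to 6.91 in the adult against 3.13 to 4.09 at E17.5.

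The clearest pattern among the 6 genes was between the stages. Slc12a5 was 4.18-fold higher in adult hippocampus than in E17.5 forebrain of euploid mice, while Slc12a2 was 1.59-fold higher, Wnk1 1.75-fold higher and Stk39 1.81-fold higher. Wnk3 and Oxsr1 were lower in the adult, at 0.572 and 0.8 times the E17.5 level. The direction was the same for all 6 genes in Ts65Dn mice. As the embryonic samples are forebrain and the adult samples hippocampus, stage and region cannot be told apart. In bulk tissue, fewer cells of a type and less RNA per cell cannot be told apart either.

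The log2 CPM of Slc12a5 at E17.5 was 7.88, 7.45, 7.66, 6.22, 7.09, 7.94, 7.63 and 7.20 in euploid libraries 1 to 8 and 7.34, 8.02, 7.89, 7.35, 7.99, 7.06 and 8.27 in Ts65Dn libraries 1 to 7. In adult males the lowest, median and highest values were 9.39, 9.53 and 9.61 for euploid, 9.24, 9.52 and 9.61 for Ts65Dn and 9.27, 9.43 and 9.57 for Ts65Dn;Brwd1+/- libraries. In adult females they were 9.29, 9.55 and 9.70 for euploid, 9.34, 9.56 and 9.61 for Ts65Dn and 9.29, 9.55 and 9.65 for Ts65Dn;Brwd1+/- libraries. Every adult library was above every embryonic library, and euploid library 4 was lowest among the embryos. The embryos also differed more among themselves than the adults did, with a group SD of 0.56 and 0.45 at E17.5 and of at most 0.12 in the adult.

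Slc12a2 at E17.5 had a log2 CPM of 5.69, 5.67, 5.70, 5.91, 5.85, 5.65, 5.77 and 5.99 in euploid libraries 1 to 8 and 5.45, 5.70, 5.77, 5.78, 5.85, 5.93 and 5.65 in Ts65Dn libraries 1 to 7. The adult libraries ran from 6.03 to 6.98 in male euploid, 6.06 to 6.83 in male Ts65Dn, 5.77 to 6.99 in male Ts65Dn;Brwd1+/-, 5.85 to 7.03 in female euploid, 5.97 to 6.81 in female Ts65Dn and 6.04 to 6.79 in female Ts65Dn;Brwd1+/- mice, with medians between 6.32 and 6.51. Here the stages overlapped, since 7 of 15 embryonic libraries lay inside the adult range. The spread was reversed from that of Slc12a5, with an SD of 0.12 and 0.16 in the embryos and 0.27 to 0.37 in the adult groups.

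**Figure D1:**
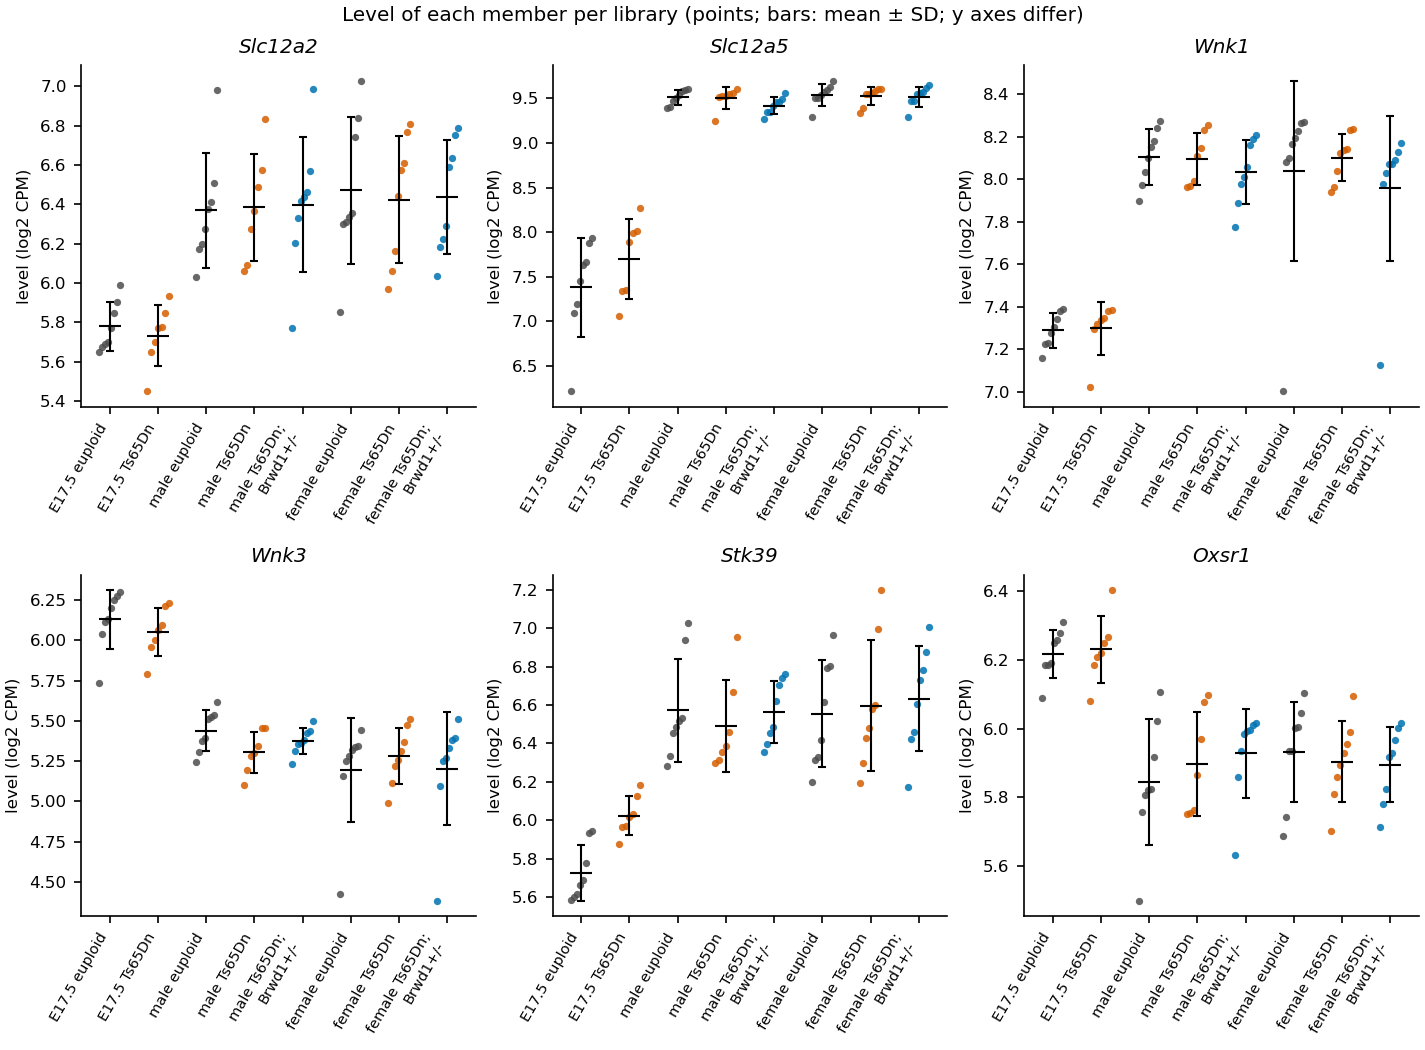
Log2 CPM (vertical axis, counts per 1000000 scaled over all 62 libraries) of the 6 genes, 1 panel each, in the 8 groups (horizontal axis), with 1 point per library, sorted from low to high, and bars for the group mean and its SD, on vertical axes that differ between panels. Slc12a5 lies between 6.22 and 8.27 in the embryos and between 9.24 and 9.70 in the adults, while Wnk3 and Oxsr1 have lower means in the adult groups.

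In the test over all 18002 genes of the joined tables, 84.3% of genes were called between the stages in euploid and 83.3% in Ts65Dn mice at an adjusted p under 0.1 (edgeR, Benjamini-Hochberg), and 39.5% and 38.6% were called with a log2 fold change of at least 1 in size. All 6 members were called in both genotypes, as most genes were, and Slc12a5 alone among them also had a log2 fold change over 1. Its log2 fold change was 2.06 (SE 0.135, 95% CI 1.79 to 2.34, adjusted p = 1.58e-18) in euploid and 1.76 (SE 0.14, adjusted p = 1.91e-15) in Ts65Dn mice. Slc12a2 changed by 0.67 (SE 0.119, adjusted p = 2.18e-06) and 0.69 (SE 0.126, adjusted p = 3.56e-06). Among the kinases, Wnk1 changed by 0.81 (SE 0.084) and 0.80, Stk39 by 0.85 (SE 0.11) and 0.55, Wnk3 by -0.81 (SE 0.0774) and -0.75, and Oxsr1 by -0.32 (SE 0.057) and -0.33. Scaled by library totals alone, the median log2 fold change of all genes moved from -0.02 to -0.34, and the values in euploid mice were 1.74 for Slc12a5, 0.35 for Slc12a2, -1.13 for Wnk3 and -0.64 for Oxsr1. No member changed direction. The cell makeup differed as well. The 7 neural progenitor markers were all called lower (median -2.38), the 6 myelinating oligodendrocyte markers all higher (median 6.22), and 6 of 8 neuronal markers higher and 2 lower (median 1.59). Of the other lists, 6 of 10 choroid plexus genes (median 1.71), 5 of 6 astrocyte (median 2.50) and 5 of 5 microglial markers (median 2.64) were called higher. With the choroid plexus list as a covariate, the differences in euploid mice were 0.58 for Slc12a2, 0.75 for Stk39 and 2.09 for Slc12a5. The part of the other shifts in the members' differences was not tested.

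No difference between the genotypes was detected in this change between stages. In the test of the difference, 0 of 6 members were called, against 0.0555% of all genes (10 genes). The change of Stk39 was smaller in Ts65Dn mice by 0.31 on the log2 scale (SE 0.153, unadjusted p = 0.0498, adjusted p = 0.595 in edgeR), and that of Slc12a5 was also smaller by 0.31 (SE 0.176, unadjusted p = 0.0889, adjusted p = 0.673). With the level of choroid plexus genes as a covariate the difference was -0.15 for Stk39 (unadjusted p = 0.104, edgeR adjusted p = 0.698) and -0.36 for Slc12a5 (unadjusted p = 0.0482, edgeR adjusted p = 0.596).

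Per length of exons, Slc12a5 was the highest of the 6 genes in 47 of 47 adult libraries and in 14 of 15 embryonic ones, and in the remaining one, euploid library 4, Oxsr1 was highest. Levels in CPM per kb were 28.5 ± 9.07 (SD, n = 8) in euploid and 35 ± 10.4 (n = 7) in Ts65Dn embryos for Slc12a5, against 8.45 ± 0.74 and 8.20 ± 0.859 for Slc12a2. In the adult groups the mean levels were 111 to 120 CPM per kb for Slc12a5 and 12.9 to 14 for Slc12a2. The chain of kinases ran in the adult from Stk39 (group means 25.8 to 28.5 CPM per kb) and Wnk1 (20.7 to 22.5) to Oxsr1 (12.4 to 13.2) and Wnk3 (4.33 to 5.05). In the embryos Oxsr1 (16 and 16.2) stood near Stk39 (15 and 18.4) and above Wnk1 (12.8 and 12.9) and Wnk3 (8.18 and 7.73). Wnk3 was the lowest of the 6 genes in every adult library, while in the embryos it was lowest in 10 libraries and Slc12a2 in the other 5. Among the 6 adult groups, the means of log2 CPM lay within 0.10 for Slc12a2, 0.12 for Slc12a5, 0.15 for Wnk1, 0.24 for Wnk3, 0.14 for Stk39 and 0.09 for Oxsr1. No span exceeded the largest SD within a group (0.12 to 0.42), which is a description and not a test. For Wnk3 the group SD ran from 0.08 to 0.35, and was largest in female Ts65Dn;Brwd1+/- mice, where library B176 was far below the others.

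The ratio of the importer to the exporter fell accordingly. It was taken per library from the counts, and so needs no scaling between libraries. Per length, NKCC1 to KCC2 RNA was 0.210, 0.278, 0.244, 0.767, 0.403, 0.195, 0.263 and 0.412 in euploid embryos 1 to 8 and 0.257, 0.191, 0.219, 0.320, 0.216, 0.437 and 0.154 in Ts65Dn embryos 1 to 7. In 47 adult libraries it was 0.0737 to 0.179, with a median of 0.106. Slc12a5 RNA thus exceeded Slc12a2 RNA in every library of both stages. Only 1 of 15 embryonic libraries, Ts65Dn 7, was below the highest adult library, and 5 of 47 adult libraries were above it.

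The adult ratio was 0.353 times that at E17.5 in euploid mice, a difference of -1.50 on the log2 scale (SE 0.246, 16 against 8 libraries, 2-sided exact permutation p = 1.36e-06, the smallest this design allows, adjusted p = 2.72e-06 over the 2 stage comparisons). In Ts65Dn mice it was 0.454 times that at E17.5, a difference of -1.14 (SE 0.212, 15 against 7 libraries, exact permutation p = 2.35e-05, adjusted p = 2.35e-05).

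**Figure D2:**
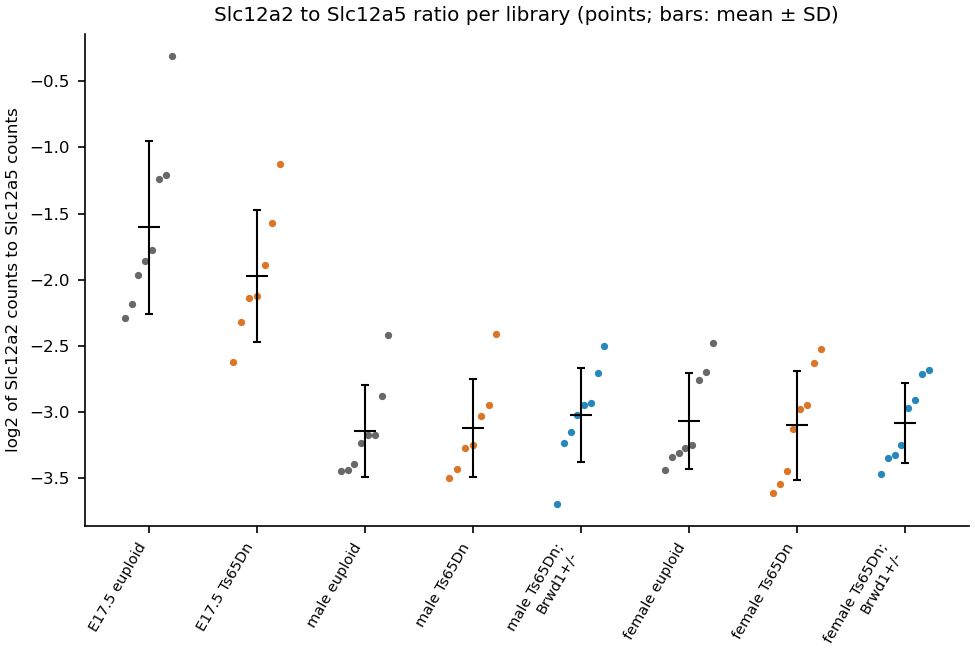
Log2 ratio of Slc12a2 to Slc12a5 counts (vertical axis) in the 8 groups (horizontal axis), with 1 point per library, sorted from low to high, and the group mean with its SD. The group means are -1.60 and -1.97 in the embryos and between -3.14 and -3.02 in the adults, and the 6 adult groups overlap.

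The question the genotypes address is whether trisomy or the third copy of Brwd1 goes with another level of these genes. The ratio did not differ detectably. At E17.5 the log2 ratio of counts was -1.97 ± 0.497 (SD, n = 7) in Ts65Dn and -1.60 ± 0.653 (n = 8) in euploid embryos, a difference of -0.37 (SE 0.298, 2-sided exact permutation p = 0.255). Within euploid libraries 1 to 4 and Ts65Dn libraries 1 to 3, whose titles share a number, it was -0.55 (exact permutation p = 0.4), and within the other 8 it was -0.22 (exact permutation p = 0.629). In the adult, means were -3.14 ± 0.346 for euploid, -3.12 ± 0.37 for Ts65Dn and -3.02 ± 0.358 for Ts65Dn;Brwd1+/- males, and -3.07 ± 0.363, -3.10 ± 0.409 and -3.08 ± 0.303 for females. The 6 adult differences were between -0.03 and 0.12 on the log2 scale, each smaller than its SE (0.167 to 0.193), with exact permutation p-values from 0.499 to 0.931. The adjusted p was 0.931 in all 7 comparisons. With the sexes together, Ts65Dn differed from euploid by -0.0033 (permutation p = 0.98), and Ts65Dn;Brwd1+/- from Ts65Dn by 0.06 (permutation p = 0.663). Without the 6 libraries against their labels, the difference of male Ts65Dn from euploid was -0.14 and still within its error.

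Of the 6 members in 7 genotype comparisons, 1 was called, Stk39 at E17.5. Its log2 CPM was 5.93, 5.78, 5.66, 5.58, 5.62, 5.94, 5.69 and 5.60 in euploid embryos 1 to 8 and 5.97, 6.18, 6.12, 5.97, 5.88, 6.02 and 6.03 in Ts65Dn embryos 1 to 7. All 7 Ts65Dn libraries were above the euploid median, and the groups overlapped only in that euploid libraries 1 and 6 were above Ts65Dn library 5. The gene was 1.21-fold higher in Ts65Dn embryos (log2 fold change 0.28, SE 0.0665, 95% CI 0.14 to 0.42, edgeR adjusted p = 0.0639), where 1.35% of all 16395 genes tested were called. The adjusted p rose above 0.1 without euploid library 4 (0.122), 5 (0.144), 7 (0.119) or 8 (0.124) or Ts65Dn library 2 (0.122) or 3 (0.139), and with the choroid plexus or the forebrain marker list as a covariate, while the log2 fold change stayed between 0.22 and 0.32.

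Markers of the tissue held by these samples were compared as well. All 10 genes of a choroid plexus list (such as Ttr, which carries thyroid hormone, and Folr1, a folate receptor) had higher means in Ts65Dn embryos, with a median log2 fold change of 0.52 against -0.01 over all genes. None of the 10 was called in edgeR and 4 had an unadjusted p under 0.05. Their summed level was 45.7 to 1205 CPM in euploid and 587 to 1341 CPM in Ts65Dn embryos. All 3 forebrain markers had lower means (median -0.35, 0 called in edgeR, 1 with an unadjusted p under 0.05), with a mean log2 CPM of 5.55 to 6.47 in euploid and 4.11 to 6.07 in Ts65Dn embryos, lowest in Ts65Dn library 7. With the choroid plexus list as a covariate, Stk39 differed by 0.28 (edgeR adjusted p = 0.255), and with the forebrain list, an alternative added after seeing the data, by 0.22 (adjusted p = 0.26). Higher means in Ts65Dn embryos were also found for oligodendrocyte precursor markers (6 of 6, 1 called, median 0.34), astrocyte markers (5 of 6, 1 called, median 0.34), meningeal markers (4 of 5, 0 called in edgeR, 2 with an unadjusted p under 0.05, median 0.30) and endothelial markers (4 of 5, 0 called in edgeR, 2 with an unadjusted p under 0.05, median 0.27). The medians of the myelinating oligodendrocyte, neuronal, microglial and neural progenitor lists were 0.25, 0.05, 0.02 and -0.11, with 0 genes called in edgeR and 2, 1, 0 and 0 with an unadjusted p under 0.05. The oligodendrocyte precursor list includes Olig1 and Olig2, which lie in the triplicated segment of chromosome 16. For these genes, extra dosage and cell content cannot be told apart here. The part of these lists in the difference was not tested. The sample titles carry 1 of 2 numbers, which the labels do not explain. Within the number of euploid libraries 1 to 4 and Ts65Dn libraries 1 to 3 the difference was 0.32 (edgeR adjusted p = 0.596), and within the number of the other 8 libraries it was 0.26 (adjusted p = 0.417).

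Slc12a5 at E17.5 had the same log2 fold change as Stk39, 0.28, but a wider error (SE 0.237, 95% CI -0.22 to 0.79, edgeR adjusted p = 0.606). It was called once factors of unwanted variation were removed (RUVr, the authors' method, with a number of factors not given in the sources used here), at 0.28 to 0.30 and adjusted p-values of 0.0905, 0.00284 and 0.00119 with 1, 2 and 3 factors. In those fits 9.16%, 16.7% and 22.1% of all genes were called. With the forebrain list as a covariate the difference was -0.11 (edgeR adjusted p = 0.919). Over the 15 embryos, with group means subtracted, Slc12a5 was lower where the forebrain list was higher (Pearson's r = -0.79, Spearman's rho = -0.90, permutation p = 3e-05 and 6e-05, adjusted over 21 relations 0.000126 and 0.00021). Without the 2 farthest libraries r was -0.88, and below and above the widest gap it was -0.73 (n = 9) and -0.61 (n = 6). The log2 ratio followed the list in the opposite direction (r = 0.75, rho = 0.87, adjusted permutation p = 0.00056 for r, and r = 0.80 without the 2 farthest libraries). It is not a separate finding, since Slc12a5 is the denominator of the ratio. Slc12a2 itself had r = 0.28 with the list (permutation p = 0.37). These relations were computed after the values had been seen.

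No difference by genotype was detected in the other members in the embryos. The log2 fold changes were -0.06 for Slc12a2 (95% CI -0.22 to 0.10), -0.10 for Wnk3 (-0.27 to 0.07), -0.0035 for Wnk1 (-0.13 to 0.12) and -0.0020 for Oxsr1 (-0.11 to 0.11), with edgeR adjusted p-values from 0.603 to 0.99.

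In adult hippocampus, 0 of 6 members were called in any genotype comparison. In males 0.795% of 16851 genes were called between Ts65Dn and euploid and 0.576% between Ts65Dn;Brwd1+/- and euploid, and in females 3.17% and 0.729% of 17146 genes. Between Ts65Dn;Brwd1+/- and Ts65Dn, 0% of genes were called in either sex by edgeR. There, 1261 genes in males and 604 in females had an unadjusted p under 0.05, and DESeq2 called 1 and 14. The intervals bound what could have been missed only in fits that kept the 6 libraries against their labels. Intervals without those libraries are not given. For Slc12a5, the 95% CIs of the log2 fold change in the 6 comparisons lay between -0.20 and 0.12. For Slc12a2 they reached from -0.38 to 0.34, since its adult libraries differed more.

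The largest difference among the adult genotype comparisons in units of its error was that of Wnk3, -0.13 in male Ts65Dn vs euploid (SE 0.0565, 95% CI -0.25 to -0.02, unadjusted p = 0.0262, edgeR adjusted p = 0.482). Slc12a5 was lower in male Ts65Dn;Brwd1+/- mice by 0.09 against both Ts65Dn (95% CI -0.19 to 0.02) and euploid mice (-0.20 to 0.01), a pair of comparisons that share the Ts65Dn;Brwd1+/- libraries. Without the libraries against their labels the first of these was -0.14 (unadjusted p = 0.0132, edgeR adjusted p = 0.488). In females the members' log2 fold changes were between -0.12 and 0.07.

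**Figure D3:**
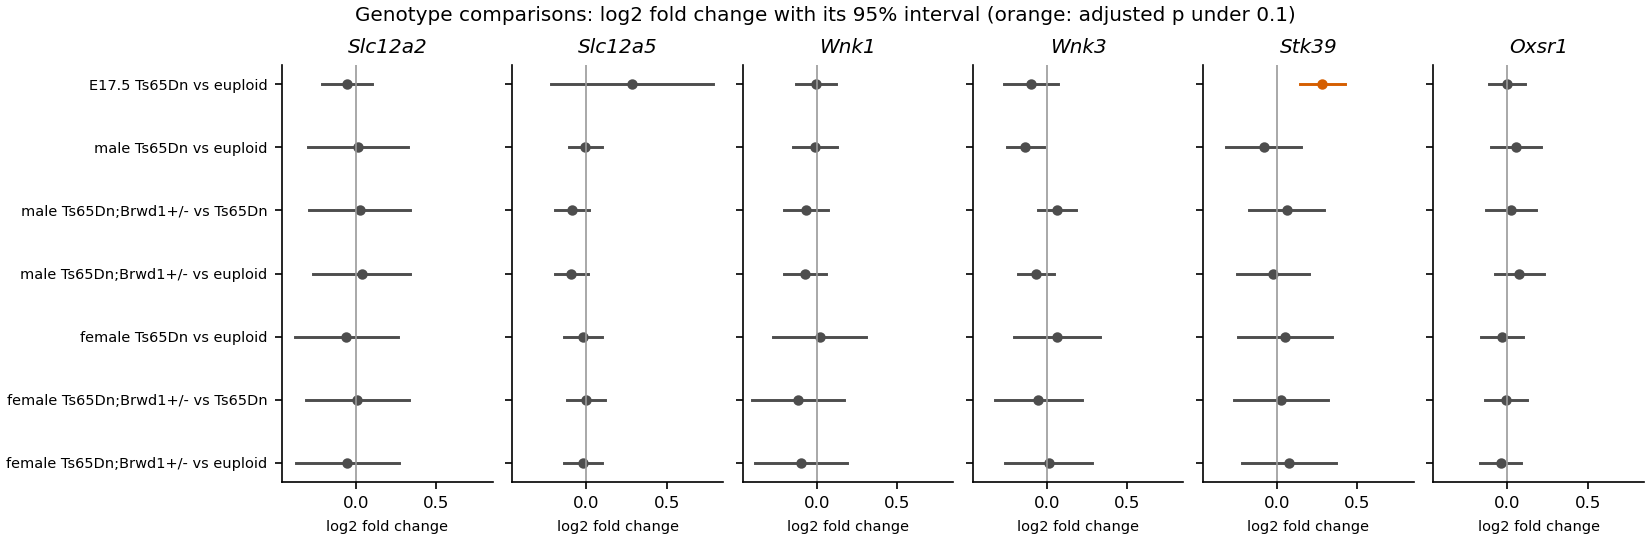
Log2 fold change (horizontal axis) with its 95% confidence interval, from edgeR, for the 6 genes (panels) in the 7 genotype comparisons (rows), in orange where the adjusted p is under 0.1 and in grey elsewhere. The interval for Stk39 at E17.5, 0.14 to 0.42, is the one in orange, and the intervals of Slc12a5 are wide in the embryos and narrow in the adults.

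Male and female mice were also compared. Female euploid B85 and male Ts65Dn B88 were kept, although they carried the sex-linked transcripts of the opposite sex. These comparisons were not run without them. No member was called in the sex by genotype interactions, where 0% of 17427 genes were called by edgeR (1935 genes for Ts65Dn vs euploid and 650 for Ts65Dn;Brwd1+/- vs Ts65Dn had an unadjusted p under 0.05). Between female and male euploid mice, 9.74% of genes and 0 of 6 members were called. The X-linked Wnk3 was at -0.22 in females (SE 0.103, unadjusted p = 0.0359, edgeR adjusted p = 0.21) and at -0.13 without female euploid B125 and female Ts65Dn;Brwd1+/- B176, whose Wnk1 and Wnk3 were far below those of their groups. Without these libraries Wnk1 moved from -0.03 to 0.09. The libraries were chosen for this after seeing the data.

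Adult libraries varied in their choroid plexus content. The summed level of the 10 choroid plexus genes ran from 38.7 to 6786 CPM, and the highest library of an adult group had 42.2 to 138.9 times the level of the lowest. With group means subtracted, Stk39 (r = 0.89, rho = 0.90) and Slc12a2 (r = 0.70, rho = 0.73) were higher and Slc12a5 (r = -0.67, rho = -0.69) lower where the list had a higher mean log2 CPM, over the 47 libraries, and the log2 ratio was higher (r = 0.81, rho = 0.79). Each had a permutation p of 1e-05, the smallest that 100000 permutations can give, and an adjusted p of 5.25e-05 over 21 relations, a family computed after seeing the values. Without the 2 farthest libraries r was 0.90, 0.66, -0.68 and 0.79 in the same order. Below the widest gap in the list's level (22 libraries) r was 0.40 for Stk39, 0.62 for Slc12a2, -0.26 for Slc12a5 and 0.63 for the ratio, and above it (25 libraries) 0.81, 0.40, -0.68 and 0.64. For Wnk1, Wnk3 and Oxsr1 r was closer to 0 (-0.18, -0.25 and -0.04), and in the 15 embryos r was between -0.20 and 0.09 for the 6 genes and the ratio. The list's genes had no called difference between adult genotypes in edgeR (0 of 10 with an unadjusted p under 0.05 in each of the 6 comparisons), and its median log2 fold change in males and females was -0.32 and -0.43 for Ts65Dn vs euploid, -0.01 and 0.33 for Ts65Dn;Brwd1+/- vs Ts65Dn, and -0.34 and -0.08 for Ts65Dn;Brwd1+/- vs euploid. The group medians of the summed level were nevertheless uneven. They were 1169 CPM for euploid, 148 for Ts65Dn and 907 for Ts65Dn;Brwd1+/- males, and 2180, 642 and 2289 CPM in females.

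**Figure D4:**
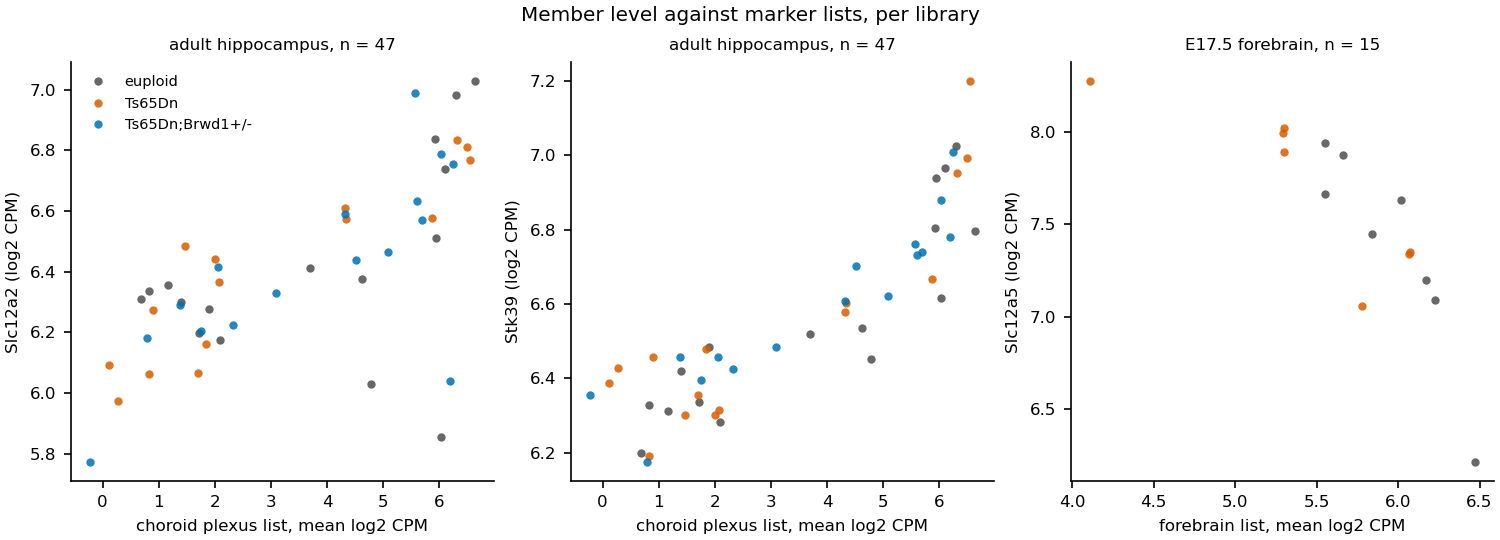
Each point is 1 library, coloured by genotype, with the log2 CPM of a gene (vertical axis) against the mean log2 CPM of a marker list (horizontal axis), as measured and with no group means subtracted. The left and middle panels set Slc12a2 and Stk39 against the choroid plexus list in 47 adult libraries, where both genes tend to be higher as the list is higher, and the right panel sets Slc12a5 against the forebrain list in 15 embryonic libraries, where it tends to be lower.

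Genes whose levels moved most closely with each transporter from library to library were different in the 2 tissues. Likeness was Pearson's r of log2 CPM with group means subtracted, over 47 libraries and 17426 genes in the adult and 15 libraries and 16394 genes at E17.5, and libraries share tissue makeup and depth. In the adult, Slc12a2 was nearest to Dock5 (0.88), Trpm3 (0.87), Adgrv1 (0.86), Chdh (0.85) and Klhdc7a (0.85), while Slc12a5 was nearest to Epb41l1 (0.86), Dab1 (0.84), Arhgef7 (0.83), Scn8a (0.83) and Anks1b (0.81). Epb41l1 encodes the cytoskeletal protein 4.1N, known to bind KCC2, and Scn8a a neuronal sodium channel. At E17.5, Slc12a5 was nearest to Dpp6 (0.99), Pitpnm3, Clstn3, Ablim3 and Snap91 (each 0.98), of which Dpp6 is a subunit of neuronal potassium channels and Snap91 a protein of synaptic vesicle recycling. Slc12a2 in the embryos was nearest to Zbed6 (0.88), Bbx, 4833422C13Rik, Atrx and Rpgrip1l (each 0.87). Among the members themselves, Slc12a2 and Stk39 had r = 0.72 in the adult but -0.47 in the embryos, and Slc12a5 and Stk39 had -0.68 and 0.59. Slc12a2 and Slc12a5 had -0.25 and -0.44.

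The wider chloride pathway was read from 4 lists. Between the stages 84.3% of all 18002 genes were called in euploid mice, 7477 higher and 7704 lower in the adult. Of 8 tested cation-chloride cotransporter genes, 5 were called higher and 2 lower in adult than in E17.5 euploid libraries, and Slc12a3, the kidney sodium-chloride cotransporter, was not tested. Besides Slc12a5, the KCC1 gene Slc12a4 was at 1.08 and the KCC4 gene Slc12a7 at -0.99 on the log2 scale. Of 11 genes of the WNK-SPAK/OSR1 pathway, 5 were called higher and 2 lower. Klhl3 (2.24) and Klhl2 (2.02), adaptors of the ubiquitin ligase that degrades WNK kinases, and Cab39l (1.18), a scaffold that activates SPAK and OSR1, had the largest differences.

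Of 8 partners and regulators of KCC2, 5 were called higher and 2 lower, beside 84.3% of all genes called in either direction. Egr4 (5.92), a transcription factor known to activate the Slc12a5 promoter, Bdnf (3.0), a neurotrophin, and its receptor gene Ntrk2 (1.97) had the largest differences. Rest, the gene of a repressor of neuronal genes, was at -0.63. All 8 genes of other chloride and bicarbonate routes were called higher, led by the carbonic anhydrase genes Car7 (4.79) and Car2 (4.0) and the calcium-activated chloride channel gene Ano2 (3.03). The medians of the 4 lists were 0.57, 0.10, 1.19 and 1.72, beside -0.02 over all genes. In Ts65Dn mice, 5 and 2, 6 and 3, 5 and 2, and 8 and 0 genes were called higher and lower, beside 83.3% of all genes called.

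**Figure D5:**
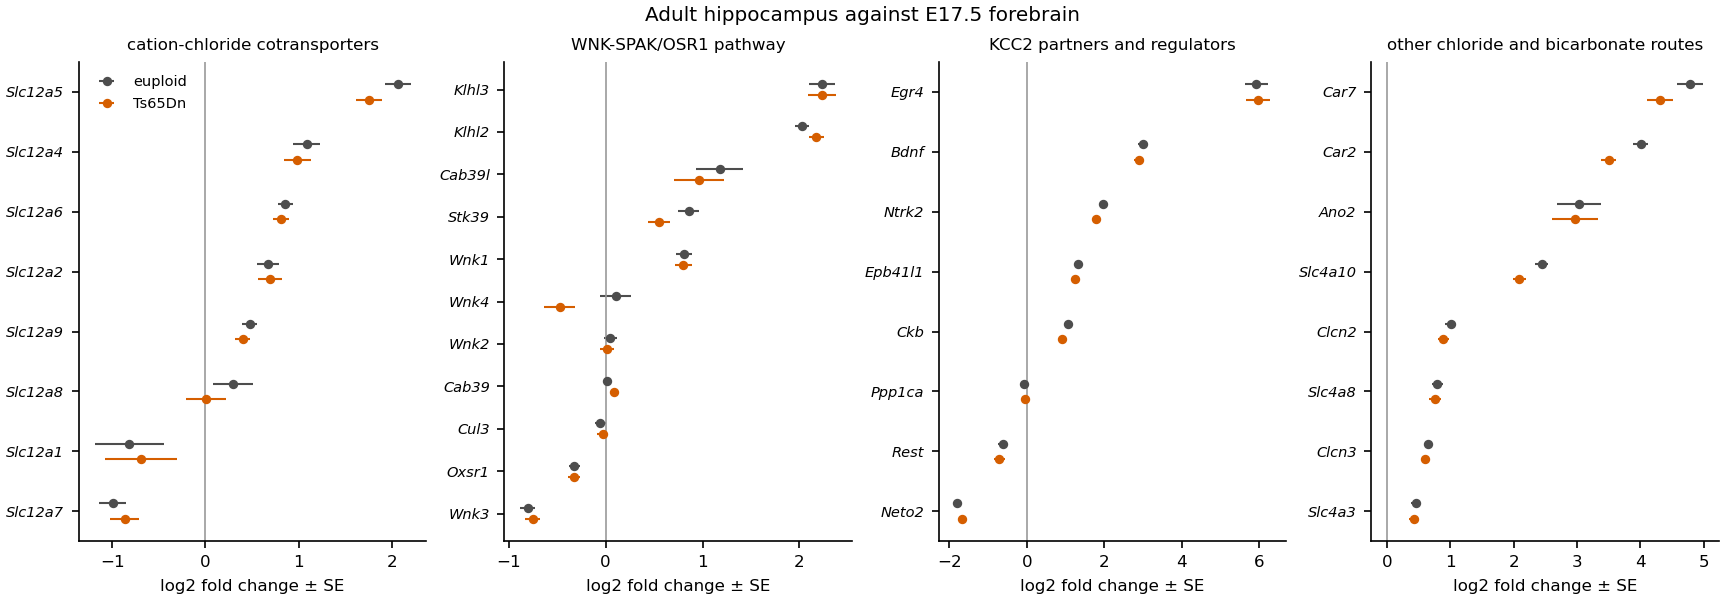
Log2 fold change between adult hippocampus and E17.5 forebrain (horizontal axis, which differs between panels) with its SE, from edgeR, for the genes (rows) of 4 lists (panels), in euploid (grey) and Ts65Dn mice (orange). All 8 genes of other chloride and bicarbonate routes lie to the right of 0 in both genotypes, and Egr4, at 5.92 in euploid mice, lies farthest.

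In the embryonic genotype comparison, the lists held 2 called genes beside 1.35% of all genes. These were Stk39 and Car2, which encodes a carbonic anhydrase of glia and choroid plexus, at 0.58 (SE 0.14, edgeR adjusted p = 0.0695). In adult females Egr4 was at -0.33 in Ts65Dn vs euploid (SE 0.0902, adjusted p = 0.065). No other gene of the 4 lists was called in a genotype comparison or an interaction. Between female and male euploid mice, with B85 kept among the females, 9.74% of all genes were called. The lists held 5 called genes, Slc12a1 (the kidney cotransporter NKCC2) at 1.20, Cul3 (the ubiquitin ligase scaffold to which Klhl3 binds) at -0.23, the chloride transporter gene Clcn3 at -0.20, Ntrk2 at -0.19 and Cab39 at -0.18. Their edgeR adjusted p-values were between 0.00335 and 0.0819.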

How the data were processed

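Polyadenylated RNA was sequenced without strand information in 62 libraries (8 and 7 E17.5 forebrains, 47 adult hippocampi). The authors aligned single reads, joined from 2 flow cells, to mm10 and deposited raw counts per gene, made with featureCounts 2.0.1, under Entrez identifiers. Per the submitters' processing notes HISAT2 2.1.0 and DESeq2 2.11.40.6 were used, and mm9 is listed beside mm10. The counts were not normalized. The authors' own tests used RUVr, with a number of factors not given in the sources used here.

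Symbols came from RefSeq for 25275 genes and from GENCODE for 18, and exon lengths from GENCODE. The counts entered the robust quasi-likelihood test of edgeR 4.0.16 (R 4.3.3) after filterByExpr (minimum count 10) and TMM scaling, Benjamini-Hochberg over all genes tested, called under 0.1. Each sex had 1 fit with its 3 genotypes, all 47 adult libraries were fitted together for the sexes, and euploid and Ts65Dn libraries of both tables for the stages. Levels are CPM after 1 TMM scaling over all libraries, with a prior count of 0.5 on the log2 scale. The ratio was log2 of Slc12a2 over Slc12a5 counts, each with 0.5 added, tested by exact permutation of libraries with Benjamini-Hochberg over 7 genotype and 2 stage comparisons, called under 0.05. Correlations used 100000 permutations within groups (SciPy 1.17.1). Scripts were tested on simulated data. A chi-square test of the counts gave at least 9.05 per degree of freedom in each of 210 pairs of libraries of a group, so none was taken as a repeat of another.

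The members and gene lists were chosen with earlier results of these data known. Other genes of the forebrain marker list are not reported here, and after the values had been seen that list was shortened, for a reason unrelated to them, to the 3 genes named. Named beside the members were list genes called in a genotype, sex or interaction comparison, the 3 of each list with the largest called stage differences, and the 5 genes most like each transporter. Rest, at -0.63 on the log2 scale between the stages, was named after its values were seen. Alternatives were DESeq2 1.42.0, other scalings and filters, RUVr factors, covariates, other sample sets and leaving out each library. Depth was 14.9 to 137.1 M (1000000) counts per library, and the members' counts of at least 921 leave little counting error next to the spread between libraries.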

Additional observations from a re-analysis of the deposited data

Results flagged for a closer look

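In 56 groups of values (7 measures, the 6 genes' log2 CPM and the log2 ratio, in 8 groups of libraries), the lowest or highest library stood far from the nearest other in 8, where chance gives about 1 in 20. All 8 were low values. The kinase genes Wnk1 and Wnk3 were low in the same adult libraries. In female euploid B125, Wnk1 was at 7.0 (next 8.08) and Wnk3 at 4.42 (next 5.16), and in female Ts65Dn;Brwd1+/- B176, Wnk1 was at 7.13 (next 7.98) and Wnk3 at 4.39 (next 5.10). Slc12a2 was also low there, at 5.85 and 6.04, although the mean log2 CPM of their choroid plexus genes, 6.02 and 6.18, was among the highest. Slc12a5 was at 9.24 in the library labelled male Ts65Dn B88 (next 9.51), which carried the transcripts of the opposite sex and whose choroid plexus genes were at 6.31. Oxsr1 was at 5.63 in male Ts65Dn;Brwd1+/- B51 (next 5.86), the adult library with the lowest choroid plexus genes. In the embryos, Wnk1 was at 7.02 in Ts65Dn library 1 (next 7.29) and Wnk3 at 5.74 in euploid library 3 (next 6.04).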

How the results depend on the processing

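All 6 members kept their direction and their call between the stages in every alternative run. The call of Stk39 in Ts65Dn mice came close to the threshold, at 0.21 to 0.61 with an edgeR adjusted p of up to 0.0955. The ratio differed between the stages by -1.54 to -1.46 on the log2 scale in euploid and -1.20 to -1.13 in Ts65Dn mice. The single genotype call, Stk39 at E17.5, was less stable. The number of members called there (1) was 0 at an FDR of 0.05, with the choroid plexus or forebrain list as a covariate, within the libraries whose titles share a number and with the replicate block, and between 0 and 1 with a library left out, where 9 of 15 omissions kept the call. It was 2 with 1 or 2 RUVr factors and 3 with 3 factors in edgeR or in DESeq2, the added genes being Slc12a5 and, with 3 factors, Wnk3 (-0.09, adjusted p = 0.0828 in edgeR), while 24.8% of all genes were called in DESeq2. With 3 RUVr factors 1 member was also called in male Ts65Dn vs euploid (Wnk3, in edgeR and in DESeq2), male Ts65Dn;Brwd1+/- vs euploid (Slc12a5, DESeq2) and female Ts65Dn;Brwd1+/- vs Ts65Dn (Wnk1, DESeq2). The cause of these changes was not tested. Of 858 members' fold changes under alternatives other than leaving out a library, 835 kept their call or moved by less than their SE, 6 lost and 10 gained a call, and 7 uncalled ones moved by more than their SE.

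The replicate block paired embryos by the replicate number in their titles. With it Stk39 differed by 0.26 (edgeR adjusted p = 0.201) and the ratio of 7 pairs by -0.31 (exact permutation p = 0.359). Across genes, the correlation of the deviations of same-numbered embryos was -0.13 to 0.23 and above 0.1 in 3 of 7 pairs, and 1 Ts65Dn embryo correlated best with its own number, so the numbers were not taken to pair the samples.

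Small adult differences of the ratio turned sign without being called. That of male Ts65Dn vs euploid (0.02) was -0.0939 without the library against its labelled sex, -0.135 without both kinds of library against their labels, -0.0033 with both sexes, and -0.0939 to 0.128 with a library left out. That of female Ts65Dn;Brwd1+/- vs Ts65Dn (0.02) was -0.0409 without the library lacking extra dosage and -0.0569 to 0.0984 with a library left out. That of female Ts65Dn;Brwd1+/- vs euploid was 0.0531 with both sexes and -0.0721 to 0.0697 with a library left out, and that of female Ts65Dn vs euploid -0.113 to 0.0532. Other alternatives included the choroid plexus list as a covariate, for which no p-value was taken. Over these, male differences were -0.135 to 0.188 for Ts65Dn vs euploid and -0.0122 to 0.215 for Ts65Dn;Brwd1+/- vs Ts65Dn. In females they were -0.202 to 0.000765 for Ts65Dn vs euploid and -0.0901 to 0.188 for Ts65Dn;Brwd1+/- vs Ts65Dn. At E17.5 the difference was -0.51 to -0.18 with a library left out and 0.07 with the forebrain list as a covariate.

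With 7 or 8 libraries a group, the smallest possible exact p was 0.000155. Counting error was small for all members, so precision was limited by the spread between libraries.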
